A study of Mus musculus with 13 samples.

Results

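The 55 protein-coding genes described here encode the alpha chains of the collagens and the alpha, beta and gamma chains of the laminins of the mouse. They were chosen by name, as every protein-coding gene whose whole symbol is Col, a number, a and a number, or Lam, 1 of the letters a, b or c, and a number. The rule gave 44 collagen chains and 11 laminin chains of the 49315 genes counted. Gene expression was measured by RNA-Seq of the midbrain in 13 male mice, 1 library per mouse. All mice, the controls included, were Ripk3fl/fl on a C57BL/6J background and 8 to 12 weeks old, and all received tamoxifen at 60 mg/kg for 5 days at least 1 week before the experiment. Ripk3fl/fl Aldh1l1Cre+ mice (called Cre+ here) also carried a tamoxifen-inducible Cre driven by Aldh1l1, a gene of astrocytes, so that deletion of Ripk3, which encodes a kinase of inflammatory and death signaling, was aimed at astrocytes while RNA came from the whole midbrain. Littermate controls were Ripk3fl/fl Aldh1l1Cre- (Cre-). Mice of both genotypes received either MPTP, a toxin of dopaminergic neurons used to model Parkinson's disease, at 20 mg/kg i.p. once a day for 5 days, or saline, and the tissue was taken 3 days later. This made 4 groups, with 3 libraries each of Cre- mice given saline, Cre+ mice given saline and Cre- mice given MPTP, and 4 of Cre+ mice given MPTP. Each is named by genotype and treatment, as in Cre- Saline. Numbers that follow each other within a group below are always those of replicates 1, 2, 3 and, in Cre+ MPTP, 4.

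Collagens are trimers of alpha chains wound into a triple helix. Fibrillar collagens form the fibrils of connective tissue, fibril-associated collagens decorate them, and collagen IV forms the sheet-like network of basement membranes. Laminins are cross-shaped trimers of an alpha, a beta and a gamma chain, and are the other network of every basement membrane. In the brain, basement membranes lie around blood vessels, where endothelial cells, mural cells and astrocyte endfeet meet, and at the pial surface, while fibrillar collagen is mostly made by fibroblasts of the meninges and of larger vessels.

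The libraries held 11489150 to 29397278 counts in genes, with a median of 24907639, and the lowest total was that of Cre- MPTP replicate 1. Ripk3 itself had 4 to 40 counts per library, with overlapping ranges in the genotypes of either treatment, too few to check the genotype labels in tissue where only astrocytes were targeted. Dopaminergic markers of the midbrain were present in all 13 libraries, among them Th at 31.9 to 53.6 CPM (the usual scaling of counts by library size, here adjusted by the trimmed mean of M values, TMM). The sum of 9 such markers was 358, 561 and 613 CPM in Cre- MPTP, against 497, 561 and 578 in Cre- Saline. None of the 9 passed the test used below in that comparison, so a loss of these neurons is not shown in these libraries. Because the tissue was measured in bulk, fewer cells of a type and less RNA per cell cannot be told apart.

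Cre- MPTP replicate 1 and Cre+ MPTP replicate 4 stood apart from the libraries of their groups in the chains described here. Of the 55 chains, 21 had their highest CPM of all 13 libraries in Cre- MPTP replicate 1 and 18 had their lowest there, while 12 were highest in Cre+ MPTP replicate 4. Extremes were not counted over all genes, so these counts are not shown to be particular to the chains. Cre- MPTP replicate 1 held the fewest genes with a count, 21101 against 25432 to 27186 elsewhere. Its summed neuron markers were lowest, at 3543 CPM against 4933 to 5997 elsewhere. Its summed markers of oligodendrocyte precursors were highest, at 918 against 257 to 530 elsewhere. In Cre- MPTP replicate 1, the deviation from the other libraries of the group moved with the GC content of the transcripts. Over the 54 chains that passed the count filter (at least 10 counts in at least 3 libraries), the log2 ratio of replicate 1 to the mean of replicates 2 and 3 correlated with GC content (Pearson's r = 0.776, Spearman's rho = 0.796, a description over genes that share the same 3 libraries). The trend was not limited to the chains. Over 19294 tested genes with a GC value, the deviation of replicate 1 from replicates 2 and 3 correlated with GC content at r = 0.562. The 27 chains of higher GC content had a median log2 ratio of 1.03 and 24 of them lay above 0, whereas the 27 of lower GC content had a median of -0.59 and 6 lay above 0. In Cre+ MPTP replicate 4, the summed CPM of 10 striated muscle markers, none of them at 0, was 7618, against 23.3 to 186 in the other 12 libraries. In Cre+ Saline replicates 1 and 3, the summed CPM of pituitary markers was 617 and 453, against 95.9 or less elsewhere. The part of GC content, of depth, of cell content, of pituitary RNA or of muscle RNA in the results below was not tested. Leaving out Cre- MPTP replicate 1 changed the sign of 14 of 53 chains in the MPTP comparison of Cre- mice and of 20 in the comparison of genotypes under MPTP. The share of all genes that changed sign was not counted. Values without Cre- MPTP replicate 1 stand beside the results it moved most.

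**Figure D1:**
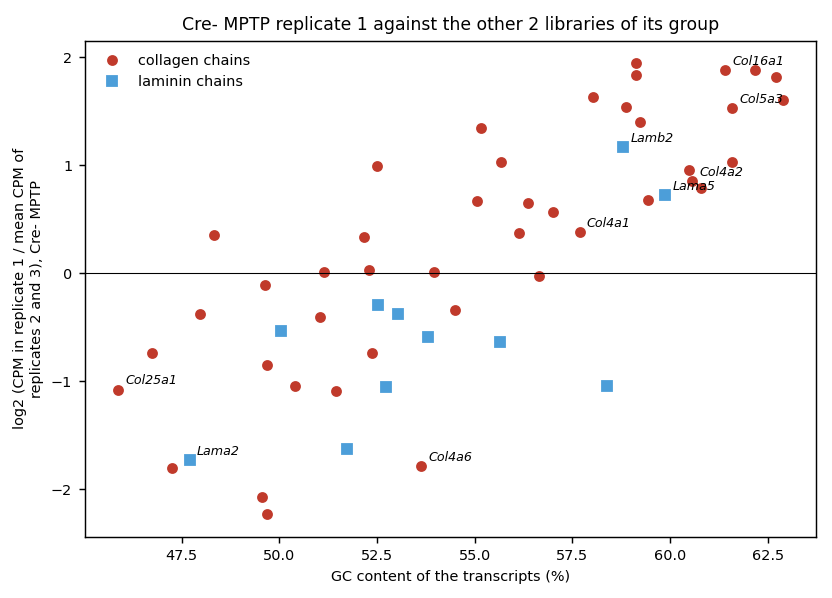
GC content of the transcripts of 54 collagen and laminin chains (x axis, percent) against the log2 ratio of the CPM in Cre- MPTP replicate 1 to the mean CPM of replicates 2 and 3 (y axis). Each point is 1 gene, circles are collagen chains and squares laminin chains; the ratio was above 0 for 24 of the 27 chains of higher GC content and for 6 of the 27 of lower GC content.

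Col4a1 and Col4a2, the chains of the common collagen IV trimer, lie head to head on chromosome 8 and start within a few bases of each other, which is why their shared start is shown. In the count files (build GRCm38), Col4a1 (ENSMUSG00000031502) runs on the minus strand at chr8:11198423-11312826 and Col4a2 (ENSMUSG00000031503) on the plus strand at chr8:11312805-11449287. The plus strand of RefSeq's GRCm38.p6 around both starts (chr8:11312801-11312830, 30 bases) reads as follows, with the 22 bases from the start of Col4a2 to the start of Col4a1 in capitals.
Col4a2 and Col4a1 start region: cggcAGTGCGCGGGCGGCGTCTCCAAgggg
The capitals are exonic in both genes. Whether reads were counted by strand is not given in the sources used here, so reads within these 22 bases could not be assigned to either gene with certainty. The same limit applies to exons of Col4a2 that overlap the antisense gene Gm15419. It also applies to other chains whose exons overlap genes of the opposite strand, among them Lama2, Lamc3, Col15a1 and Col9a3.

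Col5a3 (ENSMUSG00000004098), a chain of the minor fibrillar collagen V, lies on the minus strand at chr9:20770050-20815067 and its exons overlap no other annotated gene. It had the largest fold change of the chains in the MPTP comparison of the Cre- mice, and the 250 bases before its start (RefSeq, GRCm38.p6, chr9:20815068-20815317, minus strand) are shown with GC boxes (GGGCGG) and CCAAT boxes (CCAAT), on either strand, in capitals.
Col5a3 upstream region: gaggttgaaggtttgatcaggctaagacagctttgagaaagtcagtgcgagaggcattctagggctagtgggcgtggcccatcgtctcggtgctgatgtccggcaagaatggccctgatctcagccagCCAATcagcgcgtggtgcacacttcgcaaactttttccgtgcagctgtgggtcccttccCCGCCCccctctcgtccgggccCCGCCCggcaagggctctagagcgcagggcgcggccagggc
The stretch held 2 GC boxes and 1 CCAAT box. RefSeq promoter windows (250 bases before to 50 after a start) were matched to 40 of the 55 chains. A chain was counted if any of its windows held the motif, while all windows were counted singly, so the shares below have unlike bases. On either strand, GGGCGG was found in windows of 25 of these 40 genes (62.5%), against 35.7% of all 32851 windows. CCAAT was found for 14 of the 40 (35.0%, against 37.4%), TATAAA for 5 (12.5%, against 13.6%), the AP-1 motif TGANTCA for 1 (2.5%, against 7.81%) and the STAT motif TTCNNNGAA for 3 (7.5%, against 8.30%). The windows of Col4a1, Col4a2 and Col5a3 each held GC and CCAAT boxes and none of the other 3 motifs.

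To compare levels between chains, CPM were divided by the exon length that the files give (CPM per kb). Over all 13 libraries, Col4a2 had the highest mean level (17.2 CPM per kb), followed by Col16a1 (14.8), Col4a1 (10.4), Col11a2 (9.37) and Col9a2 (8.16). Lamb2 (7.99) and Lamc1 (5.66), the main beta and gamma chains of vessel laminins, were the highest of the laminins. The place of Col4a1 rests on the MPTP libraries: in Cre- Saline its mean of 6.30 CPM per kb lay below those of Col11a2 (10.5), Col9a2 (7.85) and Lamb2 (7.02). The alpha chains were lower, with Lama5 at 2.08, Lama2 at 1.36 and Lama4 at 0.73 CPM per kb. The classical fibrillar chains Col1a1 (2.88), Col1a2 (2.61) and Col3a1 (1.35) ranked 15th, 16th and 24th. Ranges of neighbours in this order could overlap over all 13 libraries, as for Col16a1 (10.001 to 48.6 CPM per kb) and Col4a1 (5.003 to 22.4). These ranges span the 4 groups. In Cre- Saline, Col16a1 was at 11.7 to 13.7 and Col4a1 at 5.003 to 7.19, without overlap. In Cre- MPTP they were at 12.97 to 48.6 and 14.8 to 22.4. At the other end, Col10a1, a collagen of growth plate cartilage, had 0 to 5 counts per library and was the only chain that did not pass the count filter; it had 0 counts in 3 libraries, where a count of 0 allows up to 3 counts (counting error only).

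**Figure D2:**
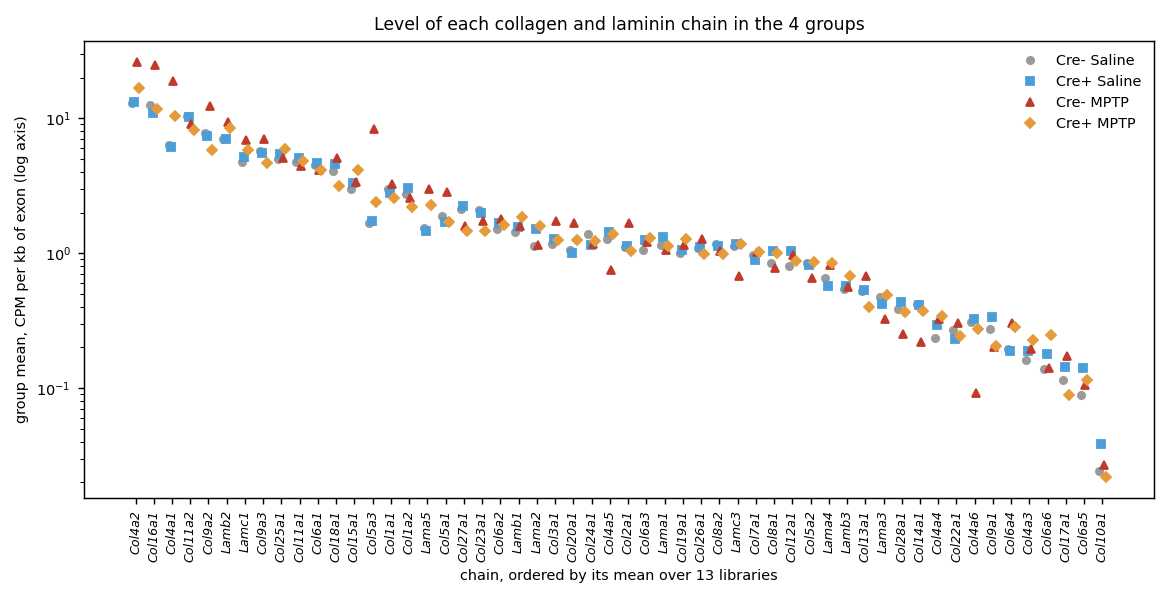
Mean level of the chains in the 4 groups, in CPM per kb of exon (y axis, log scale), ordered along the x axis by the mean over all 13 libraries. Symbols mark the groups; Col4a2 is highest (17.2 CPM per kb over all libraries), Col10a1 lowest, and the Cre- MPTP means of Col4a1, Col4a2 and Col5a3 stand above the other groups.

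Summed over the 6 chains of collagen IV, the level was 21.2 ± 3.49 CPM per kb (SD, n = 3) in Cre- Saline, 21.5 ± 1.95 (n = 3) in Cre+ Saline, 46.7 ± 13.1 (n = 3) in Cre- MPTP and 29.3 ± 6.405 (n = 4) in Cre+ MPTP. All 3 Cre- MPTP libraries (34.9 to 60.8) lay above all saline libraries (17.2 to 23.8). The fibrillar chains summed to 31.1 ± 2.76 in Cre- Saline and 37.2 ± 19.3 in Cre- MPTP, where the libraries spread from 22.9 to 59.2 and overlapped the saline range of 27.9 to 33.1. The fibril-associated chains summed to 30.0 ± 1.28 and 48.9 ± 34.3, the latter from 28.7 to 88.5. The 6 chains of collagen VI summed to 7.51 ± 0.87 and 7.68 ± 1.08. The laminin alpha chains summed to 4.93 ± 1.37 in Cre- Saline, 6.31 ± 0.53 in Cre- MPTP and 6.34 ± 1.38 in Cre+ MPTP. These class sums are descriptions and were not tested.

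The first comparison asked which chains differed 3 days after MPTP in mice with astrocytic RIPK3. In Cre- mice, 3 of the 54 tested chains rose and none passed the test in the other direction (edgeR's quasi-likelihood test, Benjamini-Hochberg adjusted p under 0.05 over 19360 genes). The 3 were Col4a1 (3.01-fold), Col4a2 (2.04-fold) and Col5a3 (4.95-fold). They made up 5.56% of the chains, against 2.23% of all genes called higher. Of all genes 0.956% were called lower, and 3.18% in either direction. At an unadjusted p under 0.05 the chains numbered 11, 7 higher and 4 lower (20.4%, against 15% of all genes). The median log2 fold change of the 54 was 0.16, against 0.03 over all genes, and 35 of the 54 lay above 0 (52.4% of all genes did). The Cre- MPTP and Cre- Saline ranges did not overlap for 6 chains that were higher (7.11% of all genes did so) and 4 that were lower (8.02%). DESeq2 called 4 chains higher and 1 lower, and limma voom with quality weights 6 and 6. Here and below, the shares of all genes are those of edgeR. The counts of these other methods have no such share beside them and are not read against it.

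Col4a1 had 37.3, 49.9 and 53.7 CPM in Cre- Saline, 42.7, 52.2 and 42.9 in Cre+ Saline, 167, 147 and 110.1 in Cre- MPTP, and 65.6, 78.4, 53.6 and 113 in Cre+ MPTP. Every Cre- MPTP library lay above all 6 saline libraries (log2 fold change 1.59 ± 0.26, edgeR adjusted p = 0.00462; errors of fold changes are SE throughout). Col4a2 was at 70.6, 90.8 and 95.3 CPM in Cre- Saline, 83.9, 97.5 and 78.8 in Cre+ Saline, 248, 151 and 124 in Cre- MPTP, and 106, 107, 92.9 and 136 in Cre+ MPTP. Again the Cre- MPTP and saline libraries did not overlap (log2 fold change 1.03 ± 0.24, edgeR adjusted p = 0.03495). The other collagen IV chains did not follow this pair. Col4a5 and Col4a6, a neighbouring head-to-head pair on the X chromosome whose products join in a specialised collagen IV trimer, were lower in all 3 Cre- MPTP libraries than in any Cre- Saline library, without passing the test. Col4a5 measured 7.18, 8.67 and 9.64 CPM in Cre- Saline, 11.1, 7.85 and 10.01 in Cre+ Saline, 2.82, 6.34 and 5.88 in Cre- MPTP, and 8.205, 8.11, 8.61 and 12.5 in Cre+ MPTP (log2 fold change -0.74 ± 0.29, edgeR adjusted p = 0.259), and its log2 fold change was -0.47 without Cre- MPTP replicate 1. Its partner Col4a6 stood at 1.67, 3.24 and 2.45 CPM in Cre- Saline, 3.82, 2.07 and 1.94 in Cre+ Saline, 0.217, 1.23 and 0.759 in Cre- MPTP, and 1.77, 2.52, 2.04 and 2.404 in Cre+ MPTP (log2 fold change -1.62 ± 0.45, edgeR adjusted p = 0.0892). The Cre- MPTP values of Col4a6 rest on 2, 31 and 23 counts. Col4a4, a chain of the collagen IV of kidney and inner ear, was at 1.63, 2.77 and 3.03 CPM in Cre- Saline, 3.59, 2.64 and 3.12 in Cre+ Saline, 3.47, 3.92 and 2.97 in Cre- MPTP, and 3.25, 4.25, 3.86 and 3.05 in Cre+ MPTP, with overlapping groups, and Col4a3, its partner, ranged from 1.08 to 3.21 CPM over all libraries.

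Without Cre- MPTP replicate 1, Col4a1 and Col4a2 were still called higher (log2 fold change 1.45, edgeR adjusted p = 0.0022, and 0.69, edgeR adjusted p = 0.0154), and Col4a6 was called lower (-1.30, edgeR adjusted p = 0.0481), as it was without Cre- MPTP replicate 2 (-2.12, edgeR adjusted p = 0.0396). For Col4a2 each Cre- Saline mouse mattered to the call, which was lost at edgeR adjusted p of 0.159, 0.109 and 0.0739 without replicates 1, 2 and 3, and after removal of the GC content trend (log2 fold change 0.68, edgeR adjusted p = 0.134). When only the Cre- libraries were fitted, none of the 3 chains kept its call, at edgeR adjusted p of 0.0536 for Col4a1, 0.374 for Col4a2 and 0.137 for Col5a3.

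Col5a3 was the fibrillar chain that rose, at 8.45, 12.3 and 13.2 CPM in Cre- Saline, 13.6, 11.5 and 10.4 in Cre+ Saline, 100.03, 42.4 and 27.004 in Cre- MPTP, and 15.2, 19.5, 10.3 and 19.8 in Cre+ MPTP. The Cre- MPTP libraries were far apart and all lay above every saline library (log2 fold change 2.31 ± 0.42, edgeR adjusted p = 0.00828). Without Cre- MPTP replicate 1, which was highest, the log2 fold change was 1.62 (edgeR adjusted p = 0.00185), and without Cre- Saline replicate 1 the call was lost (2.14, edgeR adjusted p = 0.0562). The other chains of collagen V, Col5a1 and Col5a2, had log2 fold changes of 0.59 ± 0.42 and -0.35 ± 0.19, and without Cre- MPTP replicate 1 of -0.16 and -0.32. Of the 11 fibrillar chains 10 did not pass the test, with a class median of -0.09. Col1a1, which with Col1a2 makes collagen I, the main collagen of connective tissue, was at 14.7, 18.8 and 25.8 CPM in Cre- Saline, 18.3, 18.5 and 18.1 in Cre+ Saline, 38.04, 14.9 and 11.1 in Cre- MPTP, and 10.6, 22.2, 12.1 and 22.6 in Cre+ MPTP. Col1a2 stood at 30.2, 34.2 and 38.2 CPM in Cre- Saline, 41.9, 31.6 and 39.4 in Cre+ Saline, 48.6, 24.6 and 23.01 in Cre- MPTP, and 20.7, 33.6, 22.3 and 33.6 in Cre+ MPTP. Both were highest in Cre- MPTP replicate 1 and near or below the saline range in the other 2 libraries of that group (log2 fold changes 0.09 ± 0.42 and -0.10 ± 0.29). Without that library Col1a1 turned to -0.60 and Col1a2 was at -0.52. Col1a1 was also at -0.08 without Cre- Saline replicate 1. Col3a1, which accompanies collagen I in vessel walls, had 8.57, 11.9 and 14.1 CPM in Cre- Saline, 11.9, 10.9 and 14.8 in Cre+ Saline, 25.4, 16.4 and 8.88 in Cre- MPTP, and 4.77, 13.8, 4.88 and 26.02 in Cre+ MPTP (log2 fold change 0.54 ± 0.57 in Cre- mice, and 0.14 without Cre- MPTP replicate 1).

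Col11a2 and Col11a1, chains of the collagen XI of cartilage and inner ear, were the fibrillar chains of highest mean level per kb over all 13 libraries, while in Cre- MPTP Col5a3 (8.29 CPM per kb) lay above Col11a1 (4.43). Col11a2 was at 65.9, 80.1 and 68.4 CPM in Cre- Saline, 71.4, 79.7 and 59.9 in Cre+ Saline, 112, 37.2 and 36.1 in Cre- MPTP, and 58.1, 50.9, 61.8 and 51.3 in Cre+ MPTP. In Cre- MPTP, replicate 1 was the highest of all 13 libraries and replicates 2 and 3 were the lowest. Without replicate 1 it was called lower (log2 fold change -0.96, edgeR adjusted p = 0.000465), whereas with all libraries it was not (-0.22 ± 0.35, edgeR adjusted p = 0.784). Col11a1 measured 53.9, 62.4 and 63.7 CPM in Cre- Saline, 67.1, 70.4 and 57.2 in Cre+ Saline, 47.04, 65.1 and 57.3 in Cre- MPTP, and 61.9, 58.1, 69.2 and 57.8 in Cre+ MPTP, with overlapping groups. Col24a1, another fibrillar chain, had 10.2, 11.1 and 10.7 CPM in Cre- Saline, 8.44, 9.19 and 8.605 in Cre+ Saline, 7.26, 11.9 and 7.39 in Cre- MPTP, and 8.94, 11.9, 7.098 and 9.69 in Cre+ MPTP.

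Markers of cell types of the tissue moved in the same comparison. In Cre- mice under MPTP, the summed CPM of 10 endothelial markers was 346 to 485, against 357 to 391 in Cre- Saline, and 1 of the 10, Tek, a receptor of angiopoietins, fell (log2 fold change -1.81 ± 0.29, edgeR adjusted p = 0.00374). Of 11 markers of pericytes and vessel smooth muscle, summing to 222 to 288 against 340 to 401, 1 fell (Vtn, which encodes vitronectin, log2 fold change -1.03 ± 0.19, edgeR adjusted p = 0.0108). Of 10 fibroblast markers, summing to 222 to 272 against 282 to 325, 4 fell (Fmod, Igf2, Slc22a6 and Ogn) and 1 rose (Dcn, which encodes the collagen-binding decorin, log2 fold change 1.52 ± 0.33, edgeR adjusted p = 0.02696). Of 8 astrocyte markers, 2 rose, Gfap and Aldh1l1 (log2 fold changes 2.60 ± 0.35 and 0.65 ± 0.15), while the list had a median of -0.05 with 4 above and 4 below 0. Their sum of 5312 to 5870 against 3770 to 4379 was 2141 to 4247 against 3479 to 4037 without Gfap. All 8 oligodendrocyte markers lay below 0, with Cnp and Mog called lower (sums 9542 to 12253 against 12940 to 17851), and of 8 microglia markers P2ry12 and Siglech fell (sums 172 to 237 against 245 to 276). Of 6 markers of oligodendrocyte precursors Gpr17 fell, while none of 9 neuron markers or of 9 dopaminergic markers was called. No marker of these lists was at 0 in all libraries of a group. The part of these cells in the changes of the chains was not tested.

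**Figure D3:**
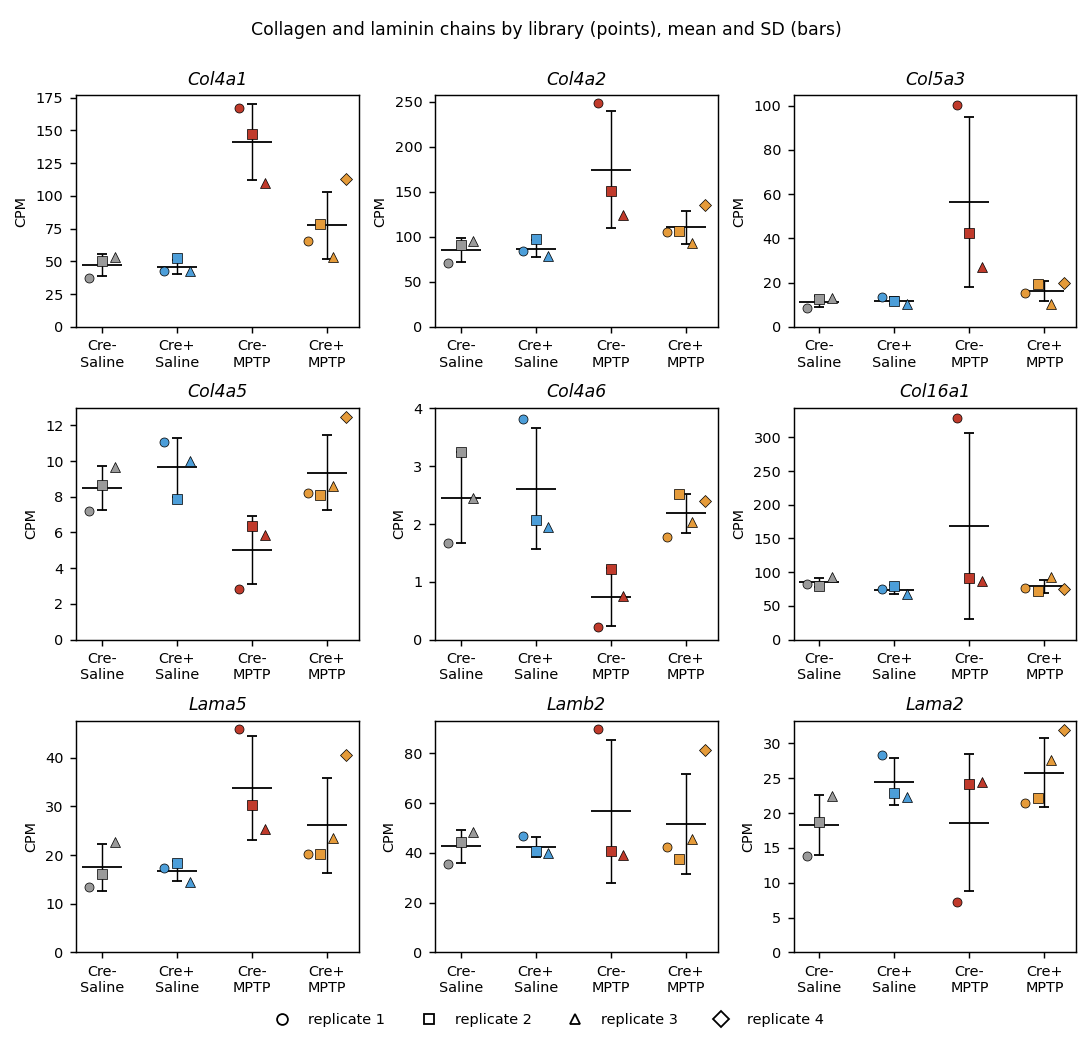
CPM of 9 chains (y axes, linear from 0) in the 13 libraries, by group along the x axis. Points are libraries, with a symbol per replicate, and bars are the group mean and SD; Col4a1 is at 110.1 to 167 CPM in Cre- MPTP and at 37.3 to 53.7 in all saline libraries, and Cre- MPTP replicate 1 is the highest point for Col4a2, Col5a3, Col16a1, Lama5 and Lamb2 and the lowest for Col4a5, Col4a6 and Lama2.

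Among the laminins no chain passed the test in Cre- mice, and 7 of the 11 lay above 0 with a median log2 fold change of 0.07. Lama5, the alpha chain of mature vessel basement membranes, came nearest, at 13.5, 16.1 and 22.7 CPM in Cre- Saline, 17.3, 18.3 and 14.5 in Cre+ Saline, 45.8, 30.2 and 25.3 in Cre- MPTP, and 20.2, 20.1, 23.6 and 40.6 in Cre+ MPTP. All Cre- MPTP libraries lay above all saline libraries (log2 fold change 0.95 ± 0.31, edgeR adjusted p = 0.1599). It was called higher by limma voom (log2 fold change 0.69, limma adjusted p = 0.0292) and when Cre- MPTP replicate 1 and Cre+ MPTP replicate 4 were left out together (0.68, edgeR adjusted p = 0.031). Lama4, the other endothelial alpha chain, measured 5.95, 8.32 and 9.35 CPM in Cre- Saline, 7.92, 6.26 and 6.43 in Cre+ Saline, 7.59, 12.6 and 9.47 in Cre- MPTP, and 8.09, 9.85, 8.03 and 14.7 in Cre+ MPTP (log2 fold change 0.34 ± 0.28, edgeR adjusted p = 0.564). Lama2, the alpha chain of astrocytes, pericytes and muscle, had 13.9, 18.7 and 22.5 CPM in Cre- Saline, 28.4, 22.9 and 22.3 in Cre+ Saline, 7.26, 24.1 and 24.5 in Cre- MPTP, and 21.5, 22.2, 27.6 and 31.98 in Cre+ MPTP. Cre- MPTP replicate 1 was its lowest library and Cre+ MPTP replicate 4 its highest, and the log2 fold change in Cre- mice was 0.04 ± 0.36, and 0.41 without Cre- MPTP replicate 1. Lama1 ranged from 5.95 to 16.2 CPM over all libraries and Lama3 from 1.41 to 6.99, without a call.

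The beta chain Lamb2 was at 35.4, 44.3 and 48.3 CPM in Cre- Saline, 46.95, 40.6 and 39.8 in Cre+ Saline, 89.8, 40.8 and 39.2 in Cre- MPTP, and 42.2, 37.7, 45.6 and 81.3 in Cre+ MPTP. High values were seen in the 2 libraries that stood apart, Cre- MPTP replicate 1 and Cre+ MPTP replicate 4, and the other 11 libraries lay between 35.4 and 48.3 CPM. Its log2 fold change in Cre- mice was 0.40 ± 0.34, and -0.090 without Cre- MPTP replicate 1. Lamb1 stood at 14.8, 13.7 and 14.5 CPM in Cre- Saline, 16.6, 15.8 and 14.2 in Cre+ Saline, 13.7, 18.1 and 15.4 in Cre- MPTP, and 14.6, 16.1, 17.1 and 26.2 in Cre+ MPTP, so Cre+ MPTP replicate 4 was again the highest (log2 fold change in Cre- mice 0.14 ± 0.21). The gamma chain shared by most laminins, Lamc1, had 27.7, 42.5 and 48.3 CPM in Cre- Saline, 41.2, 45.1 and 41.5 in Cre+ Saline, 47.4, 68.6 and 54.3 in Cre- MPTP, and 39.4, 55.05, 41.1 and 56.5 in Cre+ MPTP. Cre- MPTP replicate 1 lay within the Cre- Saline range and the other libraries of its group above it (log2 fold change 0.52 ± 0.22, edgeR adjusted p = 0.299). Lamc3 measured 5.08, 7.03 and 8.62 CPM in Cre- Saline, 6.82, 7.57 and 6.85 in Cre+ Saline, 2.38, 5.51 and 4.56 in Cre- MPTP, and 8.09, 6.38, 7.45 and 6.75 in Cre+ MPTP (log2 fold change -0.71 ± 0.28, edgeR adjusted p = 0.259), and its log2 fold change was -0.46 without Cre- MPTP replicate 1. Lamb3 ranged from 2.71 to 4.99 CPM over all libraries.

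Of the 9 fibril-associated chains none passed the test in Cre- mice. Col16a1, the highest of the class, had 82.8, 79.1 and 92.8 CPM in Cre- Saline, 75.1, 80.1 and 67.5 in Cre+ Saline, 328, 90.9 and 87.5 in Cre- MPTP, and 76.4, 72.3, 92.7 and 74.5 in Cre+ MPTP. Cre- MPTP replicate 1 stood far above every other library, and the remaining 12 lay between 67.5 and 92.8 CPM (log2 fold change 0.99 ± 0.40, edgeR adjusted p = 0.277). Without Cre- MPTP replicate 1 the log2 fold change was 0.07 (edgeR adjusted p = 0.746). Col9a2, a collagen IX chain, showed the same form, at 22.2, 26.6 and 24.03 CPM in Cre- Saline, 22.8, 23.8 and 22.04 in Cre+ Saline, 73.5, 19.2 and 22.3 in Cre- MPTP, and 16.4, 17.2, 20.6 and 17.7 in Cre+ MPTP, and its log2 fold change of 0.65 was -0.22 without that library. Col9a1, the partner of Col9a2, was low at 1.39, 1.601 and 1.17 CPM in Cre- Saline, 1.93, 1.75 and 1.45 in Cre+ Saline, 1.19, 0.9902 and 0.858 in Cre- MPTP, and 0.813, 0.895, 1.51 and 0.954 in Cre+ MPTP. Col12a1, which binds collagen I fibrils, measured 10.3, 13.6 and 12.96 CPM in Cre- Saline, 17.3, 15.4 and 14.8 in Cre+ Saline, 17.3, 13.9 and 13.2 in Cre- MPTP, and 13.1, 14.9, 12.999 and 11.98 in Cre+ MPTP. Col22a1, a collagen of muscle-tendon junctions, was at 3.02, 2.19 and 2.26 CPM in Cre- Saline, 2.09, 2.4000 and 1.904 in Cre+ Saline, 2.82, 3.29 and 2.21 in Cre- MPTP, and 2.14, 2.35, 2.75 and 1.76 in Cre+ MPTP. The Cre- MPTP range of Col20a1 lay wholly above that of Cre- Saline, without passing the test (log2 fold change 0.65 ± 0.21, edgeR adjusted p = 0.147). Col19a1 had a log2 fold change of 0.23 and was called higher without Cre- MPTP replicate 1 (0.61, edgeR adjusted p = 0.0279). Col9a3 was at 0.28 with and -0.33 without that library, and Col14a1 at -0.88 and -0.67.

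The remaining classes held no call in Cre- mice. Collagen VI, which forms beaded microfibrils next to basement membranes, was represented by Col6a1 at 19.1, 19.6 and 20.7 CPM in Cre- Saline, 21.6, 18.7 and 20.9 in Cre+ Saline, 17.9, 19.8 and 16.5 in Cre- MPTP, and 13.3, 17.96, 18.01 and 23.7 in Cre+ MPTP. Col6a2 was at 11.98, 10.9 and 14.8 CPM in Cre- Saline, 13.8, 13.3 and 14.8 in Cre+ Saline, 25.1, 11.3 and 8.35 in Cre- MPTP, and 8.94, 14.7, 10.1 and 20.5 in Cre+ MPTP. Col6a3 ranged from 7.38 to 18.05 CPM, and Col6a4, Col6a5 and Col6a6 stayed under 4 CPM in all libraries. Col18a1, the source of endostatin and a proteoglycan of vessel basement membranes, had 20.4, 29.1 and 35.7 CPM in Cre- Saline, 33.6, 35.1 and 28.2 in Cre+ Saline, 49.9, 30.5 and 27.1 in Cre- MPTP, and 23.1, 24.3, 18.99 and 21.7 in Cre+ MPTP. Its relative Col15a1 measured 13.4, 21.3 and 22.6 CPM in Cre- Saline, 21.96, 23.3 and 18.3 in Cre+ Saline, 28.4, 17.3 and 18.9 in Cre- MPTP, and 24.1, 21.4, 27.9 and 31.8 in Cre+ MPTP. Cre- MPTP replicate 1 was the highest library for Col18a1 and Cre+ MPTP replicate 4 for Col15a1.

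Of the transmembrane collagens, Col25a1, a chain of neurons that binds amyloid, was at 53.7, 65.3 and 75.7 CPM in Cre- Saline, 77.03, 69.2 and 63.5 in Cre+ Saline, 37.6, 78.8 and 80.2 in Cre- MPTP, and 79.1, 61.5, 94.9 and 71.3 in Cre+ MPTP. The lowest library was Cre- MPTP replicate 1. Col23a1 had 11.7, 10.8 and 13.3 CPM in Cre- Saline, 9.34, 10.6 and 14.05 in Cre+ Saline, 13.1, 8.12 and 8.35 in Cre- MPTP, and 8.28, 9.73, 8.47 and 7.25 in Cre+ MPTP, while Col13a1 and Col17a1 ranged from 1.15 to 6.29 and from 0.46 to 1.30 CPM. Col7a1, the anchoring fibril chain, stood at 10.6, 9.02 and 10.5 CPM in Cre- Saline, 8.87, 9.27 and 9.404 in Cre+ Saline, 16.04, 7.68 and 7.96 in Cre- MPTP, and 10.3, 10.3, 10.96 and 10.2 in Cre+ MPTP. Col8a2 was at 5.08, 4.92 and 5.696 CPM in Cre- Saline, 4.45, 5.04 and 5.63 in Cre+ Saline, 9.104, 2.42 and 2.54 in Cre- MPTP, and 4.03, 5.54, 4.13 and 4.08 in Cre+ MPTP. This network-forming chain was called lower without Cre- MPTP replicate 1 (log2 fold change -1.07, edgeR adjusted p = 0.00402), against -0.21 ± 0.41 with it. Col8a1 ranged from 2.71 to 8.13 CPM. Col26a1 measured 9.05, 8.67 and 9.06 CPM in Cre- Saline, 8.79, 10.1 and 8.19 in Cre+ Saline, 15.5, 8.08 and 7.79 in Cre- MPTP, and 8.76, 5.54, 11.4 and 6.79 in Cre+ MPTP, and Col28a1 stood at 1.905, 2.46 and 1.31 CPM in Cre- Saline, 1.46, 2.77 and 2.13 in Cre+ Saline, 0.325, 1.98 and 1.39 in Cre- MPTP, and 2.07, 1.57, 1.42 and 2.14 in Cre+ MPTP.

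**Figure D4:**
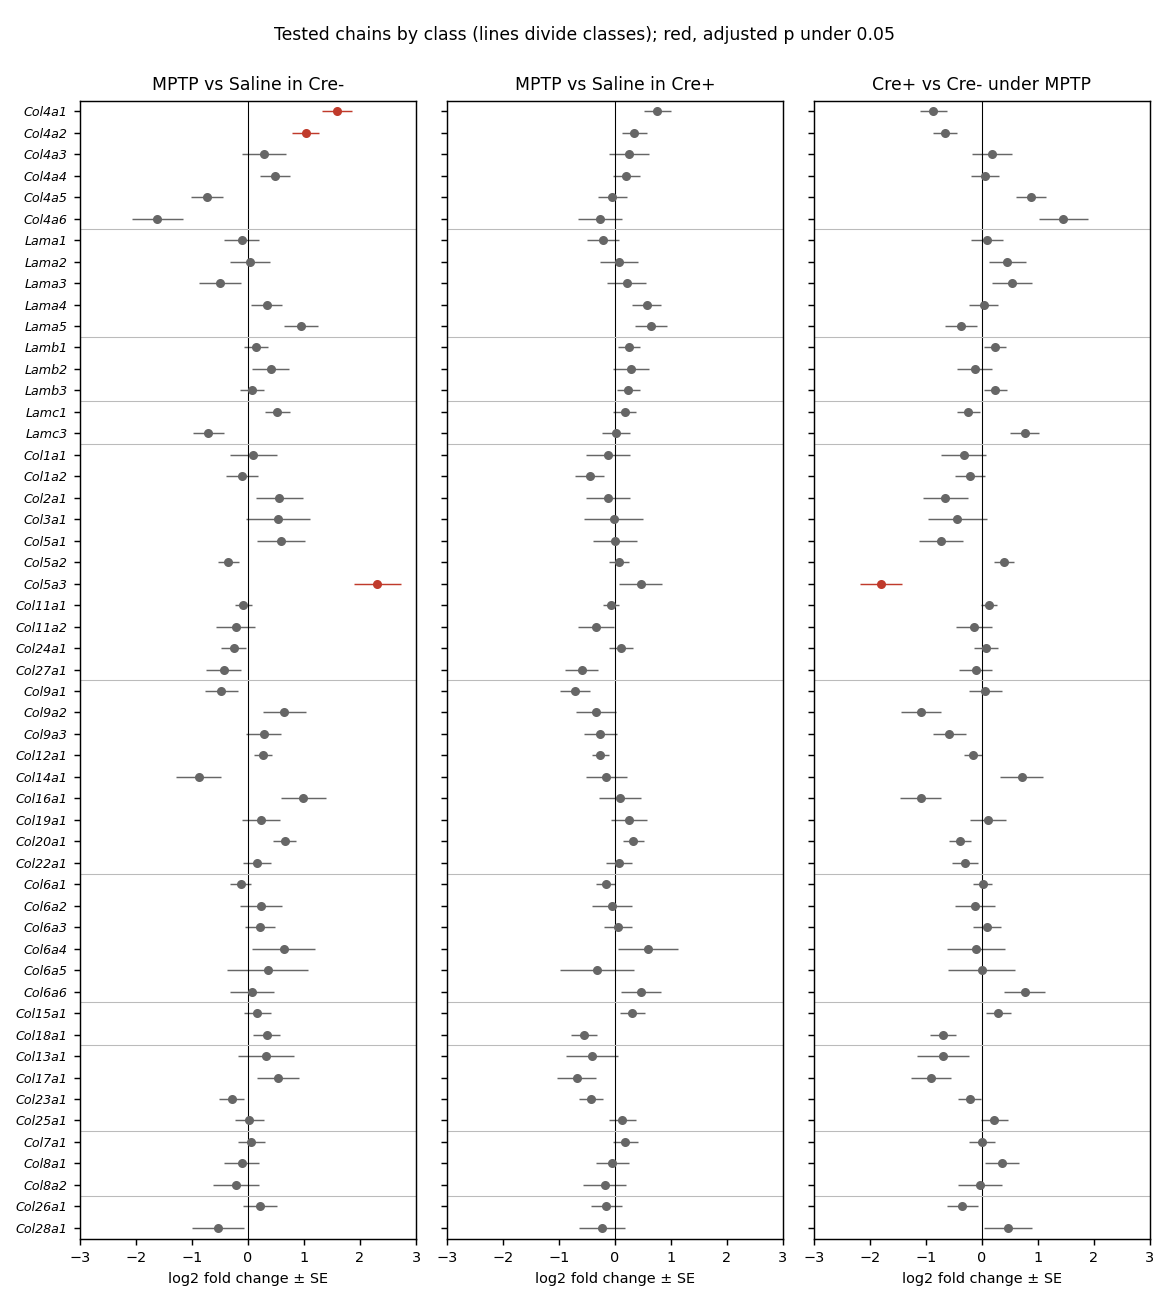
Log2 fold change ± SE (x axes) of tested chains in 3 comparisons, with chains along the y axis grouped by class, from top collagen IV, laminin alpha, beta and gamma chains, fibrillar, fibril-associated, collagen VI, endostatin-bearing, transmembrane, short-chain network and anchoring, and other collagens. Red marks an edgeR adjusted p under 0.05: Col4a1, Col4a2 and Col5a3 in Cre- mice, none in Cre+ mice, and Col5a3 between genotypes under MPTP.

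The second comparison asked the same of mice whose astrocytes were targeted for Ripk3 deletion. In Cre+ mice, none of the 54 chains passed edgeR's test, and 0% of all 19360 genes did. Above 0 lay 27 of the 54 (50.9% of all genes). At an unadjusted p under 0.05 there were 4 chains, 2 higher and 2 lower (7.41%, against 3.47% of all genes). DESeq2 called none and limma voom called Col18a1 and Col1a2 lower. The ranges did not overlap for 5 chains that were higher (5.06% of all genes) and 4 that were lower (4.61%). Col4a1 had the smallest p (log2 fold change 0.76 ± 0.24, edgeR adjusted p = 0.9897), and all 4 Cre+ MPTP libraries (53.6 to 112.6 CPM) lay above the 3 Cre+ Saline libraries (42.7 to 52.2). Lama5 (log2 fold change 0.65 ± 0.29, edgeR adjusted p = 0.9999) and Lama4 (log2 fold change 0.57 ± 0.26, edgeR adjusted p = 0.9999) followed, also without overlap between the groups. Without Cre+ MPTP replicate 4, where the muscle markers were high, the 3 log2 fold changes were 0.52, 0.35 and 0.33. Col4a2 was at 0.35 ± 0.22 and Col5a3 at 0.46 ± 0.38. In the other direction the smallest p were those of Col9a1 (-0.71 ± 0.27), Col18a1 (-0.55 ± 0.23) and Col23a1 (-0.43 ± 0.21). Of the 11 laminin chains 9 lay above 0, with a median log2 fold change of 0.21. The summed endothelial markers were 358 to 476 CPM in Cre+ MPTP, with replicate 4 highest, against 309 to 355 in Cre+ Saline. Other marker lists moved too, without a call. All 8 oligodendrocyte markers and 9 of 10 fibroblast markers lay below 0, and all 10 muscle markers above 0. The part of these cells in these values was not tested.

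The third comparison set the genotypes side by side after MPTP. Col5a3 was lower in Cre+ MPTP than in Cre- MPTP, at 10.3 to 19.8 against 27.004 to 100.03 CPM (log2 difference -1.79 ± 0.37, edgeR adjusted p = 0.0368). It was the only chain of the 54 called (1.85%, against 1.03% of all genes called lower), and none was called higher (0.517% of all genes, or 1.54% in either direction). In all, 26 of the 54 differences lay above 0 (52.4% of all genes). At an unadjusted p under 0.05 the chains numbered 11, 4 higher and 7 lower (20.4%, against 19% of all genes). DESeq2 and limma voom called Col4a1 as well as Col5a3 lower, and they called 2 and 4 chains higher. The ranges did not overlap for 3 chains that were higher (6.25% of all genes) and 2 that were lower (5.07%). Without Cre- MPTP replicate 1, the Col5a3 difference was -1.10 (edgeR adjusted p = 0.0274), and Col11a2 and Col8a2 were called higher in Cre+ MPTP (0.59 and 0.83). The call was lost without Cre+ MPTP replicates 1, 3 or 4 (edgeR adjusted p of 0.115, 0.115 and 0.0726), in the fit of the 2 MPTP groups alone (0.324, edgeR adjusted) and after removal of the GC content trend (0.0691, edgeR adjusted).

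Col4a1 lay lower in Cre+ MPTP without passing the test (log2 difference -0.86 ± 0.24, edgeR adjusted p = 0.113), and the groups overlapped only through Cre+ MPTP replicate 4, at 112.6 CPM, and Cre- MPTP replicate 3, at 110.1. Without Cre+ MPTP replicate 4 it was called lower (-1.09, edgeR adjusted p = 0.0432). Col18a1 was lower in all 4 Cre+ MPTP libraries than in any Cre- MPTP library (log2 difference -0.70 ± 0.23, edgeR adjusted p = 0.176), and the difference was -0.39 without Cre- MPTP replicate 1, where Col18a1 was highest. Col4a2 differed by -0.66 ± 0.22, and by -0.32 without Cre- MPTP replicate 1. In the other direction, Col4a6 (log2 difference 1.45 ± 0.43, edgeR adjusted p = 0.147), Col4a5 (log2 difference 0.88 ± 0.27, edgeR adjusted p = 0.162) and Lamc3 (log2 difference 0.76 ± 0.26, edgeR adjusted p = 0.191) were higher in every Cre+ MPTP library than in any Cre- MPTP library, at 1.13, 0.61 and 0.51 without Cre- MPTP replicate 1. Leaving out Cre- MPTP replicate 2 brought Col4a6 past the threshold (1.95, edgeR adjusted p = 0.0379) and gave 3 chains called lower, Col5a3, Col16a1 and Col9a2. This comparison shares the Cre- MPTP libraries with the first, so the same 3 mice enter both.

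Marker genes differed in this comparison too. Of 10 endothelial markers, Tek and Kdr, receptors of vessel growth, were higher in Cre+ MPTP (log2 difference 1.88 ± 0.27, edgeR adjusted p = 0.00907, and log2 difference 1.28 ± 0.28, edgeR adjusted p = 0.0421). Of 8 astrocyte markers, Gfap, the intermediate filament of reactive astrocytes, was lower (log2 difference -2.20 ± 0.32, edgeR adjusted p = 0.00827), while 5 of the 8 lay above 0 with a list median of 0.14. All 8 microglia markers lay above 0 and P2ry12 and Siglech were called higher (log2 differences 2.12 ± 0.19 and 2.75 ± 0.38), and all 8 oligodendrocyte markers lay above 0 without a call. No fibroblast, pericyte or muscle marker passed the test. The part of these cells was not tested.

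Between genotypes given saline, none of the 54 chains passed edgeR's test, as was true of all genes (0%), and neither DESeq2 nor limma voom called any. At an unadjusted p under 0.05 there was 1 chain, Col12a1 (1.85%, against 0.909% of all genes), at a log2 difference of 0.37 ± 0.17 (edgeR adjusted p = 1). Next in the same direction were Col4a4 (0.33 ± 0.26) and Lama2 (0.42 ± 0.36). Opposite in sign were Col24a1 (-0.28 ± 0.23) and Col22a1 (-0.22 ± 0.25). Without Cre+ Saline replicate 1 or 3, where the pituitary markers were high, no chain was called and these 5 kept their signs, with Col12a1 at 0.31 and 0.42. Col4a1, Col4a2 and Col5a3 had overlapping ranges in the 2 saline groups. The median log2 difference of the 54 chains was 0.05, and 33 lay above 0 (48.1% of all genes). The groups did not overlap for Col12a1 and Col6a5, which were higher in Cre+ Saline (5.91% of all genes), and Col24a1, which was lower (5.71%).

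Whether the response to MPTP differed by genotype was tested as the interaction. None of the 54 chains passed edgeR's test, against 0.0103% of all genes called higher (2 of 19360) and 0% lower. At an unadjusted p under 0.05 there were 6 chains, 1 higher and 5 lower (11.1%, against 5.76% of all genes). Above 0 lay 21 of the 54 (49.7% of all genes). DESeq2 called none, and limma voom called Col11a2. Col5a3 had the smallest p (log2 difference -1.85 ± 0.55, edgeR adjusted p = 0.399), followed among the negative values by Col18a1 (-0.88 ± 0.33) and Col4a1 (-0.83 ± 0.35). Without Cre- MPTP replicate 1 these were -1.16, -0.58 and -0.70. The largest positive values by p were those of Col4a6 (1.36 ± 0.60), Lamc3 (0.73 ± 0.38) and Col4a5 (0.69 ± 0.39), and without that library 1.04, 0.48 and 0.43. The rise of Col4a1, Col4a2 and Col5a3 past the threshold in Cre- mice and not in Cre+ mice is therefore not shown to differ between the genotypes.

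Ratios between chains do not depend on the library size. In counts per kb, the ratio of Col4a1 to Col4a2 was 0.469, 0.488 and 0.499 in Cre- Saline and 0.452, 0.475 and 0.483 in Cre+ Saline. It was 0.596, 0.863 and 0.785 in Cre- MPTP and 0.550, 0.651, 0.512 and 0.736 in Cre+ MPTP. All 7 MPTP libraries therefore lay above all 6 saline libraries, with group means of 0.485 ± 0.015 (SD, n = 3), 0.470 ± 0.016 (n = 3), 0.748 ± 0.137 (n = 3) and 0.612 ± 0.101 (n = 4) in the same order. The pair shares its start region, and its mRNA levels moved by unequal folds. In a ratio chosen after its values were seen, Col4a5 to Col4a1 was 0.193 to 0.214 in Cre- Saline, 0.0187, 0.0479 and 0.0593 in Cre- MPTP, 0.115 to 0.178 in Cre+ MPTP and 0.167 to 0.288 in Cre+ Saline.

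The ratio of Lama2 to Lama4 was 1.66 to 1.77 in Cre- Saline and 2.56 to 2.71 in Cre+ Saline, without overlap. It was 0.707, 1.41 and 1.91 in Cre- MPTP and 1.96, 1.66, 2.54 and 1.60 in Cre+ MPTP. The saline ranges thus did not overlap for this ratio, while those of the MPTP groups did. It was 1 of several ratios computed, and how often other pairs of genes show such a gap was not counted. Lama2 to Lama5 was 0.689 to 0.808 in Cre- Saline and 0.872 to 1.14 in Cre+ Saline, also without overlap. Lama4 to Lama5 overlapped, at 0.388 to 0.487 and 0.322 to 0.432. None of these chains was called between the saline groups. Cre+ Saline replicates 1 and 3 were the libraries with high pituitary markers, whose part in these ratios was not tested. Col1a1 to Col1a2, whose products join 2 to 1 in collagen I, stayed between 0.828 and 1.48 over all libraries and the groups overlapped. Col6a1 to Col6a2 was 1.35 in Cre- MPTP replicate 1 and 2.20 to 3.76 in the other 12 libraries. Lamb1 to Lamb2 was 0.0932 in Cre- MPTP replicate 1 and 0.183 to 0.272 elsewhere. All ratios are descriptions, with no test.

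**Figure D5:**
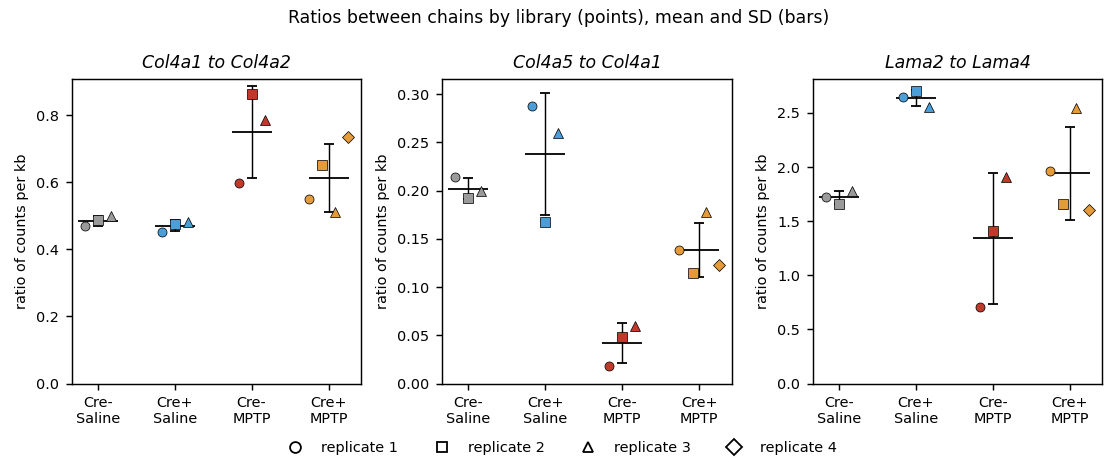
Ratio of counts per kb (y axes, linear from 0) for 3 pairs of chains in the 13 libraries, by group along the x axis; points are libraries, with a symbol per replicate, and bars the group mean and SD. Col4a1 to Col4a2 lies at 0.452 to 0.499 in the saline libraries and at 0.512 to 0.863 after MPTP.

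Genes that work with the chains were taken from 4 lists. Of 30 genes of collagen synthesis and crosslinking, 2 rose in Cre- mice after MPTP (6.67%, against 2.23% of all genes), with a list median log2 fold change of 0.39 against 0.03 over all genes. Lox, the oxidase that starts the crosslinking of collagen and elastin, was at 0.873, 1.91 and 1.497 CPM in Cre- Saline and at 22.2, 12.2 and 5.74 in Cre- MPTP (log2 fold change 3.21 ± 0.69, edgeR adjusted p = 0.0237). In Cre+ MPTP it was at 1.03, 4.08, 0.665 and 1.07, below all 3 Cre- MPTP libraries (log2 difference -2.98 ± 0.62, edgeR adjusted p = 0.0366). Adamts14, which cleaves the amino propeptide of fibrillar procollagens, rose from 0.754, 0.898 and 0.913 to 3.68, 5.11 and 2.34 CPM (log2 fold change 2.11 ± 0.49, edgeR adjusted p = 0.0348). No gene of this list was called in Cre+ mice after MPTP, where Adamts14 had the smallest p (1.03 ± 0.48), or between genotypes given saline, where Adamts3 did (0.39 ± 0.20). Of all genes 0% were called in either comparison. The interaction called no gene of the list (smallest edgeR adjusted p = 0.364), so a response that differs by genotype is not shown for Lox.

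Of 20 partners of collagen IV and laminin in basement membranes, 2 rose in Cre- mice (10%, against 2.23% of all genes), with a list median of 0.08. Tinagl1, a secreted glycoprotein of vessel basement membranes, went from 10.8, 9.57 and 13.3 to 91.8, 26.9 and 28.4 CPM (log2 fold change 2.12 ± 0.41, edgeR adjusted p = 0.0115), and was at 13.5, 13.7, 14.5 and 20.7 in Cre+ MPTP (log2 difference -1.64 ± 0.36, edgeR adjusted p = 0.0445). Fbln5, an organiser of elastic fibers, went from 11.3, 12.2 and 15.8 to 47.1, 23.96 and 32.9 CPM (log2 fold change 1.40 ± 0.30, edgeR adjusted p = 0.0225). Both were highest in Cre- MPTP replicate 1, without which their log2 fold changes were 1.30 and 1.12 and the genotype difference of Tinagl1 -0.83, with the calls kept. None of the 20 was called in Cre+ mice, where Mmrn2, an endothelial matrix protein, had the smallest p (0.80 ± 0.29), nor under saline, where Egfl7 did (-0.41 ± 0.36). Of all genes 0% were called in either. The interaction called none of the 20 (smallest edgeR adjusted p = 0.701), so a response that differs by genotype is not shown for Tinagl1.

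Of 18 tested receptors of collagen and laminin (19 listed), 1 rose in Cre- mice (5.56%, against 2.23% of all genes), with a list median of -0.02. Sdc4, a heparan sulfate proteoglycan that acts as a coreceptor of integrins, was at 80.4, 84.7 and 93.6 CPM in Cre- Saline and at 206, 181 and 184 in Cre- MPTP (log2 fold change 1.14 ± 0.13, edgeR adjusted p = 0.0008503). It was at 106, 115, 89.3 and 100.05 in Cre+ MPTP, without overlap with Cre- MPTP (log2 difference -0.90 ± 0.12, edgeR adjusted p = 0.007197). Its interaction did not pass the test (log2 difference -0.93 ± 0.18, edgeR adjusted p = 0.138), but did without Cre- MPTP replicate 1 (-0.87, edgeR adjusted p = 0.015). In Cre+ mice Itga2 had the smallest p (-1.25 ± 0.65) and under saline Itga11 (-0.26 ± 0.29), without a call (0% of all genes in both).

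Of 18 tested genes of TGF-beta signaling (19 listed), a pathway that drives matrix synthesis in many tissues, none was called in any comparison, with a median of 0.39 in Cre- mice. At an unadjusted p under 0.05 there were 6, 5 higher and 1 lower (33.3%, against 15% of all genes). Ccn2, a matricellular target of the pathway, had the smallest p, at 10.3, 9.26 and 13.3 CPM in Cre- Saline and 68.4, 26.7 and 21.2 in Cre- MPTP (log2 fold change 1.81 ± 0.47, edgeR adjusted p = 0.0645), and at 5.802, 18.1, 7.85 and 13.3 in Cre+ MPTP (log2 difference -1.78 ± 0.43, edgeR adjusted p = 0.0697). Without Cre- MPTP replicate 1 these were 1.13 and -1.10. In Cre+ mice it was Tgfbr2, a receptor (0.34 ± 0.13), and under saline Smad4 (0.14 ± 0.13). Partner genes were counted with edgeR.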

How the data were processed

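Whole midbrain RNA of 13 mice (ribosomal RNA depleted, paired-end) was sequenced by the study. The authors trimmed reads with Trimmomatic 0.36, aligned them to GRCm38 with STAR 2.5.2b and deposited raw counts of unique hits per gene from featureCounts (Subread 1.5.2); the strand setting and annotation release are not given in the sources used here. Totals of 11489150 to 29397278 counts per library limit the precision of low chains, and intervals or floors cover counting error only. Symbols were taken from the GENCODE M21 annotation (49056 of 49315 identifiers matched). The 19360 genes that reached 10 counts in 3 or more libraries were fitted over all 4 groups with edgeR 4.0.16 (quasi-likelihood test, TMM scaling, R 4.3.3), with Benjamini-Hochberg adjustment over all genes; groups came from the sample labels, and each library is a distinct mouse. CPM were computed over the TMM-scaled library size. In data simulated for MPTP against Saline in Cre- mice (19360 genes), the test recovered 14 of 67 genes set to a 2-fold change, 47 of 67 set to 4-fold and 57 of 66 set to 8-fold, with 3 false calls. DESeq2 made 32 false calls in the same data and limma voom 4. The simulated counts held no shift of a whole library, such as the GC trend or the muscle and pituitary RNA described above. They therefore do not give the error rate for these libraries. Values in every library are given for chains called in any comparison, the 3 of smallest p in each direction of each comparison, the 2 of highest level per kb in each class, and Col4a1, Col4a2, Col1a1, Col1a2, Col3a1, Lama2, Lama4, Lama5, Lamb1, Lamb2 and Lamc1; any other chain named was chosen after its values were seen, and 1 chain counted in the totals is not reported here by name or drawn by level or fold change. The members and lists were chosen with earlier results of these data known. Alternatives were DESeq2 1.42.0, limma voom (limma 3.58.1), other scalings and filters, length and GC trends (the GC trend chosen after seeing the data), a replicate block, fits of 2 groups, and libraries left out.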

Additional observations from a re-analysis of the deposited data

Results flagged for a closer look

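In Cre+ MPTP, the only group of 4 libraries and so the only group examined, a library was singled out where its gap to the nearest other library, divided by the range of the group, was above Dixon's 95% critical value; by chance this happens in about 1 in 20 tests. Of 63 tests in this group 4 singled out a library. Replicate 4, the library with high muscle markers, was the highest for Lama5 at 40.6 CPM and for Col4a5 at 12.5 CPM. Col7a1 was singled out through replicate 3 at 11.0 CPM, and Col8a2 through replicate 2 at 5.54 CPM.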

How the results depend on the processing

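In Cre- mice after MPTP, the count of chains called higher (3) was 6 with limma voom, 5 without Cre- MPTP replicate 1 and Cre+ MPTP replicate 4, and 0 with only the Cre- groups fitted; leaving out 1 library gave 1 to 4, with 1 without Cre- Saline replicate 1. The count called lower (0) was 1 with DESeq2, 6 with limma voom, 1 with the length trend removed, 1 with the GC trend removed and 2 without both libraries, and leaving out 1 library gave 0 to 3, with 3 without Cre- MPTP replicate 1. In Cre+ mice limma voom called 2 lower. Between genotypes under MPTP, the count called higher (0) was 2 with DESeq2 and 4 with limma voom. It was 1 with the GC trend removed, 2 without both libraries and 0 to 2 leaving out 1. The count called lower (1) was 2 with DESeq2, 2 with limma voom, 0 with the GC trend removed and 2 without both libraries. It was 0 with 2 groups fitted and 0 to 3 leaving out 1. The 3 came when Cre- MPTP replicate 2 was dropped, and the 0 when Cre+ MPTP replicate 1 or 3 was. Dropping Cre+ MPTP replicate 4 left 1 chain called lower, Col4a1 in place of Col5a3. For the interaction limma voom called 1 higher. The cause was not tested. Signs reversed in Cre- mice after MPTP for Col1a1 (voom -0.64, GC trend -0.34, without both libraries -0.59, leaving out 1 from -0.60 to 0.41), Col1a2 (length trend 0.16, leaving out 1 from -0.52 to 0.084), Col3a1 (voom -0.087), Lama2 (replicate block -0.018, leaving out 1 from -0.20 to 0.41) and Lamb2 (voom -0.14, without both libraries -0.080, leaving out 1 from -0.090 to 0.61). Same-numbered libraries share only a number: over 18 pairs their deviations correlated at -0.211 to 0.192, and 6 of 13 libraries correlated best with their own number. With the replicate block 2 chains were called higher in Cre- mice and 0 lower between genotypes under MPTP (edgeR adjusted p = 0.130 for Col5a3). Of 413 values of single chains under settings that left out no single library, 382 kept direction and side of the threshold, 8 fell below it, 15 rose past it and 8 reversed. With DESeq2 size factors, the class sums moved by less than the SD between replicates. Ratios do not depend on the scaling, so they could not move with it. Neither comparison covers libraries left out.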
